A study of Mus musculus with 2 samples.

Results

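Long intergenic noncoding RNAs (lincRNAs) are transcripts that lie between protein-coding genes and are not annotated as translated. A gene was taken as a member here when all its annotated transcripts had the type lincRNA and its level reached 3 TPM in both hippocampus libraries. TPM is a relative abundance scaled for transcript length and sequencing depth. Meg3, Rian, Mirg, H19, Peg13, Airn and Kcnq1ot1 were set aside by name, and of these 7 only Meg3 would have met both criteria. The rule left 126 genes of 55536 annotated genes. It drew on 5841 lincRNA-only genes, so 2.16% of them were members, while 3715 had no read in either library. The members were thus chosen by their TPM in both libraries, so levels are given below as a description with no test.

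Polyadenylated RNA of the hippocampus was sequenced, taken from adult mice of 6 months that the labels describe as C57BL/6 and, more narrowly, as strain B6NCrl. The series holds 1 group of 2 libraries, replicate 1 and replicate 2, each made from 20 ng of RNA with Nextera tagmentation. The labels give each library its own tissue sample but the same donor identifier, and do not say whether they came from separate animals. No treatment, genotype or second tissue was compared, so p-values below set replicate 1 against replicate 2 and measure counting error only. The libraries held 38921671 and 39499357 expected reads. All 8 markers of hippocampal glutamatergic neurons were at or above 3 TPM in both libraries. The libraries differed in markers of neighbouring tissues. The 8 choroid plexus markers summed to 15288 TPM in replicate 1 and 134 TPM in replicate 2, and none of them was without reads in either library. Of 6 ependymal markers 2 were called higher in replicate 1 by the test described below, and of 7 meningeal fibroblast markers 3 were called lower and 1 higher. In bulk RNA, fewer cells of a type and less RNA per cell cannot be told apart.

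LincRNAs work in several ways. Some act in the nucleus, as Malat1 does in nuclear speckles; some bind proteins or microRNAs in the cytoplasm; and some are host transcripts whose spliced or processed parts become small nucleolar RNAs (snoRNAs), which guide the modification of ribosomal RNA, or microRNAs, which repress mRNAs through a short seed. Many start beside a coding gene and are transcribed away from it. An annotated lincRNA can also be a copy or a piece of another gene, and then the reads of both are hard to separate.

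The members spanned a wide range of levels with most near the lower end. Mean levels ran from 3.16 to 9911 TPM, with a median of 6.88 TPM, against a median of 18.7 TPM for the 10324 protein-coding genes that passed the same level in both libraries. Of the members, 10 averaged 100 TPM or more, 7 lay between 30 and 100, 31 between 10 and 30, 35 between 5 and 10, and 43 under 5 TPM. Only 1 member stood among the 100 highest genes of the tissue and 10 among the 1000 highest. That member was AY036118, at the chromosome 17 locus described below. All levels and ranks in this paragraph are from the first of 2 programs that quantified the reads. The 5 highest members held 80.7% of all member TPM in replicate 1 and 87.2% in replicate 2.

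The best-known nuclear member was also high. Malat1, a nuclear RNA held in speckles beside splicing factors, had 885 TPM in replicate 1 and 735 TPM in replicate 2, or 810 ± 107 TPM (SD, n = 2). Both libraries were of similar height, and replicate 1 was the higher. The reads sat in a small part of the gene. Of 4 annotated transcripts on chr19:5795690-5802672 (mm10, minus strand), the 485-base Malat1-203 took 90.5% of the gene's reads in replicate 1 and 88.7% in replicate 2, and 881 and 730 TPM. The 6983-base Malat1-201, which spans the whole gene, had 4.50 and 4.67 TPM. Malat1-203 begins 1 base from the gene's 5′ end, covers chr19:5801916-5802671, and has its 3′ end 6226 bases short of the gene's 3′ end.

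The member 2900097C17Rik is the gene that RefSeq calls Norad, an RNA that binds Pumilio proteins, which repress mRNAs. It had 326 TPM in replicate 1 and 256 TPM in replicate 2. In reads the gap was larger, 47265 in replicate 1 and 30839 in replicate 2, a log2 ratio of 0.62, since a 339-base transcript with 1.00% of the reads added 50.03 TPM in replicate 2 alone. The 4915-base transcript on chr2:156388065-156392979 (minus strand) holds 11 copies of the Pumilio motif TGTANATA on its own strand. Among the 9453 annotated transcripts of 3915 to 5915 bases, only 3 hold as many, this one included, their median is 0, and 40.2% hold at least 1. Among the other 125 members, taking the longest transcript of each, 99 hold none and the most is 8, in C230004F18Rik. A motif match is a description of the letters and does not show binding.

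Another member, 1700020I14Rik, is recorded by RefSeq as Oip5os1 and is also known as Cyrano, an RNA that pairs with the microRNA miR-7 and directs its decay in mouse brain. It had 45.3 TPM in replicate 1 and 39.9 TPM in replicate 2, with 6164 and 5218 reads. Its 8300-base transcript 1700020I14Rik-202 (chromosome 2, plus strand) carries the extended match to miR-7 at bases 2935 to 2959. Both are shown 5′ to 3′ because this is the contact on which the RNA's known role rests; capitals mark the seed (bases 2 to 8) in the microRNA and the complementary bases in the site.
mmu-miR-7a-5p: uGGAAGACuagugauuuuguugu
1700020I14Rik-202: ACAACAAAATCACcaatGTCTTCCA
A run of 13 bases is complementary to the 3′ part of the 23-base microRNA and 8 bases to its 5′ end, with 4 bases between them in the site and 2 skipped in the microRNA. The same 8-base match occurs in 8 of the other members, where the longest run complementary to the 3′ part is 7 bases. The gene's other transcript, the 1381-base 1700020I14Rik-201, has the 8-base match with a run of only 3 bases. This shorter transcript took 53.2% of the gene's TPM in replicate 1 and 57.0% in replicate 2 from the first program. From the second program it took 58.8% and 62.8%. C230004F18Rik, which RefSeq calls Cdr1os, overlaps all 1554 exonic bases of Cdr1 on the other strand of chromosome X. It had 67.4 TPM in replicate 1 and 72.0 TPM in replicate 2, a log2 ratio of -0.02, while Cdr1 had 21.8 and 40.7 TPM and a log2 ratio of -0.93. Whether strand was used in counting is not given in the sources used here, so reads of these overlapping genes may have been exchanged. No value is given for the circular RNA of that locus.

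Bc1 was the second highest member by the first program, and its amount depended on the program. It is a short RNA of rodent neurons, made by RNA polymerase III and carried into dendrites. It had 1139 TPM in replicate 1 and 1455 TPM in replicate 2 from the first program. The RNA, on chr7:144914470-144914637 (plus strand), is 168 bases long and is printed because the programs gave it very different amounts; capitals mark the A-rich stretch of bases 75 to 106, in which 28 of 32 bases are A.
Bc1: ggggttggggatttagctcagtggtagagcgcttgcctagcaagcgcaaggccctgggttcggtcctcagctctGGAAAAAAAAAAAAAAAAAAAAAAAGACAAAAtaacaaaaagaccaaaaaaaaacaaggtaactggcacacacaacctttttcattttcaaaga
Of its 31-base words, 42.0% also occur in another annotated gene, most of them in Lrrc17, which had 0.35 and 0.27 TPM.

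SnoRNA host genes had small ratios between the libraries. Of 18 matched genes on the list of these hosts, 5 were members and 16 reached 3 TPM in both libraries. Those left out carry other transcript types, as Gas5 does at 1259 TPM in replicate 1 and 1181 TPM in replicate 2, or fall under the level, as Snhg18 does. Snhg6, the host of Snord87, had 83.5 and 80.4 TPM. Snhg12, which holds Snora16a, Snora44, Snora61 and Snord99, had 71.8 TPM in replicate 1 and 84.5 TPM in replicate 2, a log2 ratio of -0.35 by reads. Epb41l4aos had 26.3 and 28.5 TPM, Snhg20 had 20.7 and 24.1 TPM, and Snhg10 had 19.1 and 19.3 TPM. The host transcript says nothing of the level of the small RNA, which was not measured.

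MicroRNA hosts of neural microRNAs were all of modest level. The hosts of miR-9, which is made in neural progenitors and neurons, were Gm3764 (Mir9-1) at 13.3 and 11.99 TPM, Mir9-3hg (Mir9-3) at 6.72 and 7.87 TPM, and C130071C03Rik (Mir9-2) at 5.27 and 6.09 TPM. The hosts of miR-124, which marks neurons, were Mir124a-1hg at 11.95 and 13.9 TPM and Mir124-2hg at 5.91 and 7.62 TPM. Mir670hg, with Mir670 and Mir129-2, had 5.69 and 6.29 TPM. The 5 members on the microRNA host list had log2 ratios of -0.15 to -0.36 by reads, and Gm3764, which is not on that list, 0.08. Of the 5, Mir9-3hg (adjusted p = 0.0075) and Mir124-2hg (adjusted p = 0.042) passed 0.05 in the exact test described below, and both are under the 2-fold size set for a call. The 8 glutamatergic neuron markers were at negative ratios too, with a median of -0.22; their part in the hosts' ratios was not tested. Mir155hg, Mir17hg and Mir142hg, hosts of microRNAs of immune or dividing cells, are listed at 0 TPM in both libraries.

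In all, 15 members span an annotated microRNA record. RefSeq mature sequences (GRCm38.p6) were sought separately, and that search did not cover every chromosome with members, so its counts are minimums. It found a mature sequence on the member's own strand for 10 members. These 10 members carry 21 different mature sequences with 21 different seeds, and the pair from miR-9 is shared by the 3 hosts named above. Gm29362, counted among the 10, itself lies within the record of Mir3068. The mature sequences of the hosts of miR-9 and Mir670hg, and the 5′ arms of 4833445I07Rik (Mir191 and Mir425; 4.59 and 4.38 TPM), are shown 5′ to 3′ with the seed in capitals, since the seed decides which mRNAs each product can repress.
mmu-miR-9-5p: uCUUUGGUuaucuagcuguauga
mmu-miR-9-3p: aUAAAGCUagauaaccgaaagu
mmu-miR-129-5p: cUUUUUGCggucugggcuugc
mmu-miR-129-2-3p: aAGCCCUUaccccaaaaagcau
mmu-miR-670-5p: aUCCCUGAguguauguggugaa
mmu-miR-670-3p: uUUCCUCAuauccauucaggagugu
mmu-miR-191-5p: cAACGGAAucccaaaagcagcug
mmu-miR-425-5p: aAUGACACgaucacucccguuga
Mir9-1 and Mir9-3 lie in introns of their hosts on the plus strands of chromosomes 3 and 7, while all 72 bases of Mir9-2 fall in exons of C130071C03Rik on chromosome 13.

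Of the neural and developmental lincRNAs on the list, 5 of 18 matched genes were members. Pantr1, which starts 926 bases from Pou3f3, a POU-domain transcription factor gene of cortical and hippocampal neurons, had 192 TPM in replicate 1 and 185 TPM in replicate 2. Pou3f3 itself had 6.00 and 4.66 TPM. Pvt1, downstream of the proto-oncogene Myc, had 8.83 and 8.82 TPM. Among the nuclear and chromatin RNAs, only Malat1 was a member of the 9 listed: Neat1, the scaffold of paraspeckles, had 0.58 and 0.45 TPM, Miat had 0.47 and 0.37 TPM, and Jpx had 4.92 and 2.92 TPM and so failed in replicate 2.

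Several high members go against the label of long intergenic noncoding RNA. The largest group of reads came from 3 members at chr17:39843013-39848788, next to or over the annotated ribosomal RNA record CT010467.1. AY036118 had 6620 TPM in replicate 1 and 13202 TPM in replicate 2, Gm26917 had 631 and 1420 TPM, and Gm42418 had 226 and 557 TPM. All 3 were lower in replicate 1, and so was CT010467.1, with 8203 and 13268 TPM and a log2 ratio of -0.72. AY036118 (923 bases) shares all its 31-base words with Gm42418, which lies over it on the other strand, and Gm42418 shares 96.3% with CT010467.1; RefSeq lists Gm42418 as the pseudogene Rn18s-rs5. Gm26917 shares no word with another gene. With the 3 genes, members made up 1.28% of all TPM in replicate 1 and 2.04% in replicate 2; without them the shares were 0.537% and 0.521%.

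Copies of coding genes and genes that RefSeq types differently were also present. Gm10076, with 1097 and 965 TPM, shares 82.2% of its words with Rpl41, a ribosomal protein gene at 5686 and 5123 TPM, and RefSeq lists it as a pseudogene. A RefSeq record was found for 103 members: 95 are lncRNAs there, 5 protein-coding, 2 pseudogenes and 1 a transcribed pseudogene. The protein-coding records are Tmem250-ps (260 TPM in replicate 1 and 166 TPM in replicate 2), Dbpht2 (69.3 and 26.6 TPM), 1810058I24Rik (32.7 and 34.5 TPM), Gm39469 (17.4 and 15.7 TPM) and Gm6712 (3.37 and 3.57 TPM). Gm48623, a 3-exon gene on chromosome 13 with no RefSeq match, was the tenth highest member, at 144 and 155 TPM.

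**Figure D1:**
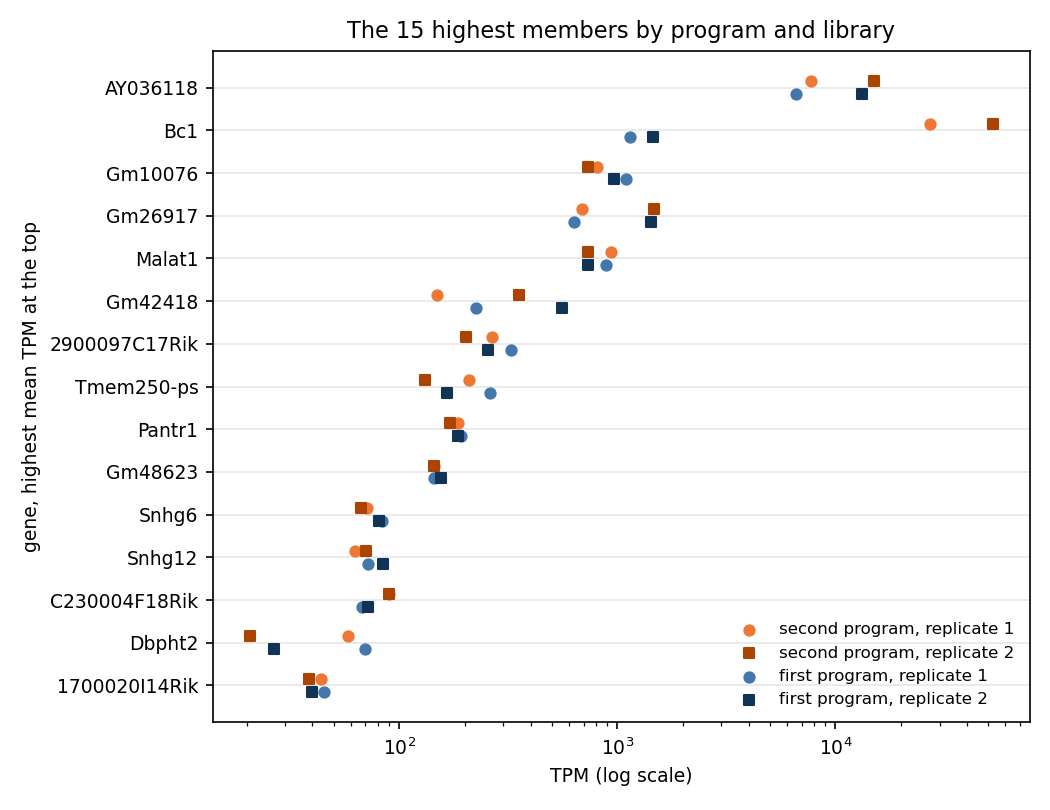
TPM (log scale) of the 15 members with the highest mean level, from the second program (upper marks of each row) and the first program (lower marks), with circles for replicate 1 and squares for replicate 2. Bc1 is the only gene of the 15 whose marks from the programs are more than 2-fold apart in both libraries. Circles and squares lie far apart for the 3 chromosome 17 genes and Dbpht2, and for Bc1 in the second program.

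Between the libraries, a few members differed by a large ratio. Counts were compared with a two-sided exact conditional binomial test of all 14080 genes that averaged 50 or more expected reads. A gene was called when its p, adjusted over all of them by the Benjamini-Hochberg method, was under 0.05 and its log2 ratio (replicate 1 over replicate 2) was at least 1 in size. Of the 115 members tested, 6 were called, or 5.22%, beside 2.41% of all genes tested and 1.05% of the tested genes that reach 3 TPM in both libraries. The other 11 members had too few reads. Without the 3 genes of the chromosome 17 locus, 3 of 112 were called, or 2.68%. The median log2 ratio over the tested members was -0.02, and the median absolute ratio was 0.19 for members, against 0.14 for all tested genes at the same level. The median member had 202 reads and the median gene at this level 1203. A ratio within 0.5 of 0 was seen for 97 of the 115, or 84.3%, against 93.8% of the tested genes at this level. By the adjusted p of the exact test alone, whatever the ratio, 34 members passed 0.05, or 29.6%, against 50.6% of the tested genes at this level. The deepest of those short of a 2-fold difference were 2900097C17Rik and Tmem250-ps, each at 0.62, the second with 18504 reads in replicate 1 and 12074 in replicate 2.

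**Figure D2:**
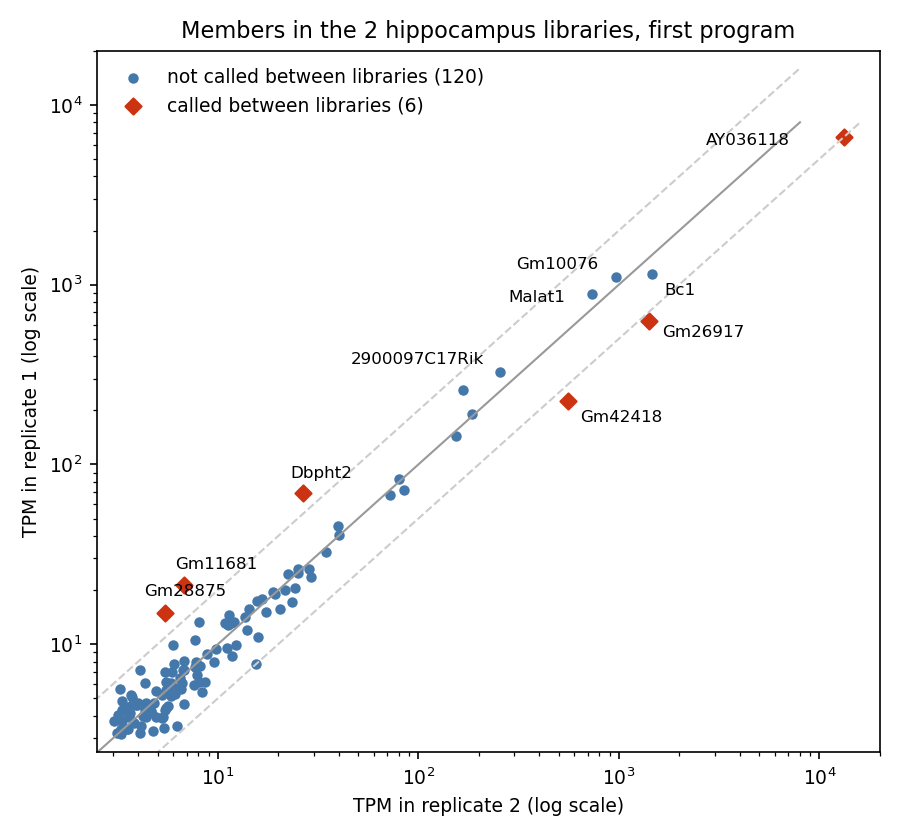
Level of each of the 126 members in replicate 1 (vertical, TPM, log scale) against replicate 2 (horizontal, TPM, log scale) from the first program; the solid line marks equal levels, the dashed lines mark 2-fold differences in TPM, and diamonds mark the 6 members called between the libraries. Most points lie along the line of equal levels, with 3 called members above it and 3 below it at high levels.

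Called genes lay in both directions. Higher in replicate 1 were Gm11681, Gm28875 and Dbpht2. Gm11681, a 3-exon gene that begins 16784 bases from the start of Sox9, a transcription factor gene of glia, had 465 reads in replicate 1 and 153 in replicate 2, with 21.2 and 6.76 TPM, a log2 ratio of 1.61 and an adjusted p of 1.83e-36 in the exact test. Gm28875, a single-exon gene on chromosome 12, had 473 and 177 reads, 14.95 and 5.44 TPM, and a log2 ratio of 1.42 (adjusted p = 4.62e-31, exact test). Dbpht2 had 10339 and 4088 reads and a log2 ratio of 1.35. None of these 3 shares more than 0.491% of its words with another gene. The choroid plexus markers were also higher in replicate 1, with 8 of 8 called; their part in these ratios was not tested. Among all tested genes, 1.97% were called higher in replicate 1 and 0.433% lower.

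The 4 noncoding lists hold 15 different members, of which 15 were tested and 0 called, beside 1.05% of the tested genes at this level. Of the 41 other matched genes on these lists, 28 were tested and 1 was called: Tug1, an RNA typed antisense, higher in replicate 1, at 87.0 TPM against 22.7 TPM in replicate 2.

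Lower in replicate 1 were the chromosome 17 genes alone. AY036118 had 155719 reads in replicate 1 and 320563 in replicate 2 (log2 ratio -1.03), Gm26917 had 61146 and 140489 (-1.19), and Gm42418 had 11563 and 29228 (-1.33). They are neighbours at a single locus, and AY036118 and Gm42418 also share sequence, so they are not 3 separate observations. The meningeal fibroblast markers summed to 2005 TPM in replicate 1 and 4656 TPM in replicate 2, and none was without reads. Most of both sums was Ptgds, at 1907 and 4555 TPM, while the median over the markers was 6.36 and 4.94 TPM. By reads, 6 of the 7 were lower in replicate 1, with 3 called lower, and Igf2 was called higher. The part of these markers in the ratios of the chromosome 17 genes was not tested. The exactTest function of edgeR, run with a common dispersion, gave adjusted p-values of 0.24 for AY036118, 0.080 for Gm26917, 0.026 for Gm42418, 0.0047 for Gm11681, 0.023 for Dbpht2 and 0.024 for Gm28875. That dispersion comes from the same 2 libraries treated as replicates of 1 group, and each side of the comparison is then 1 library, so these values are given as a description. Gm49207 had a log2 ratio of -1.11 with 31.2 and 67.7 reads, under the count minimum, and a posterior SD of 40.4% of its count in replicate 1.

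**Figure D3:**
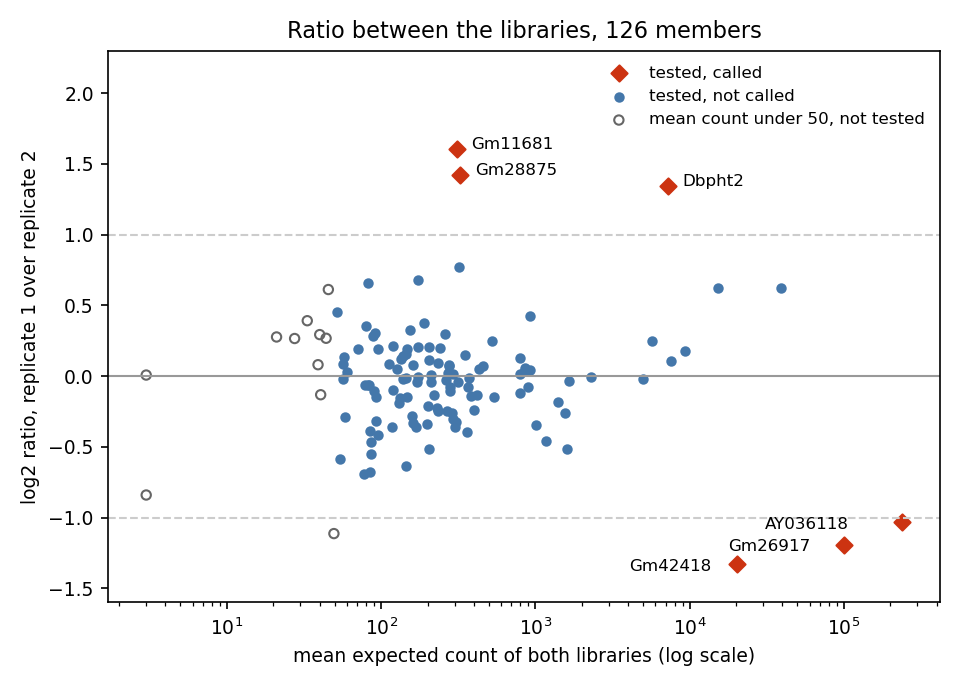
Log2 ratio of counts, replicate 1 over replicate 2 (vertical), against the mean expected count of both libraries (horizontal, log scale) for the 126 members; diamonds are called, filled circles are tested and not called, open circles have a mean count under 50. The 3 called genes above 1 have ratios of 1.61, 1.42 and 1.35, the 3 called below -1 are the chromosome 17 genes, and the open circle below -1 is Gm49207.

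Between the programs, the members agreed in most cases and parted widely in a few. The second program's TPM was summed per gene and divided by the first program's, with a pseudocount of 0.1 TPM, and a gene was set apart when the absolute log2 ratio was at least 1 with the same sign in both libraries. Of the 126 members, 7 were apart, or 5.56%, beside 2.34% of the 11006 genes at this level, and these are the same reads counted in different ways, so no test applies. The level of 3 TPM was set on the first program alone, for members and for all genes, so it shapes the counts in each direction. A gene low in the first program could not enter: lincRNA-only Ftx had 1.92 and 1.62 TPM there and 26.8 and 22.9 TPM in the second program. The median log2 ratio was -0.11 for members and -0.25 for all genes at this level. Across the 126 members the mean levels from the programs had a Spearman correlation of 0.852, against 0.971 across all genes at this level; the members' levels are lower and their reads fewer.

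Higher in the second program were 3 members, beside 0.591% of genes at this level. Bc1 had 27259 TPM in replicate 1 and 52551 TPM in replicate 2 in the second program, against 1139 and 1455 TPM in the first, which is 23.9-fold and 36.1-fold more. In reads the gap was wider still, with 89851 and 182508 in the second program against 1310 and 1884 in the first. The effective length given to Bc1 was 66.9 and 67.2 bases in the second program and 37.7 and 41.7 bases in the first. In the second program Bc1 alone held most of the member TPM, and members made up 3.96% and 7.27% of all TPM there. Its log2 ratio between the libraries was -1.03 in the second program, where it was called, and -0.52 in the first, where it was not. The other 2 were AC102496.1, with 10.6 and 11.1 TPM in the second program against 3.66 and 3.83 TPM in the first, and Gm31294, a 138-base gene with 48 and 59 reads in the second program against 2 and 4 reads in the first. Gm31294 is a member on the strength of those 2 and 4 reads.

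Lower in the second program were 4 members, beside 1.75% of genes at this level, and each of them shares over 80% of its words with other genes. Gm26825, on chromosome 5, had 0.821 and 1.33 TPM in the second program against 17.3 and 23.3 TPM in the first, and 91.4% of its words also occur in Gm15459, a processed pseudogene on its other strand. Gm15459 had 15.5 and 7.82 TPM in the first program. Gm48228 had 0.391 and 0.151 TPM against 13.0 and 10.9 TPM, and shares 66.8% of its words with Selenok, a selenoprotein gene at 407 and 388 TPM in the first program. Gm49207, listed at 0 in the second program against 7.74 and 15.5 TPM in the first, shares 83.1% with Ahsa1, a gene for a cofactor of the chaperone Hsp90 at 113 and 104 TPM in the first program. Gm29362, also listed at 0, had 3 reads in each library in the first program and lies within the record of Mir3068.

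Of the 12 members with at least 50% of their 31-base words in another gene, 5 were apart, and of the other 114, 2 were apart (Bc1 and Gm31294). The other 7 members with much shared sequence were not apart, among them Gm10076 with 804 and 730 TPM in the second program against 1097 and 965 TPM in the first, and Gm49749, which lies wholly within the sequence of Pcnx, with 12.8 and 10.02 TPM against 15.8 and 14.3 TPM. The next smallest ratio was that of Gm42418, at -0.60 in replicate 1 and -0.66 in replicate 2, and the next largest that of 6530403H02Rik, at 0.71 and 0.53. Over all members, 42 share no such word with another gene and the median share is 1.55%.

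**Figure D4:**
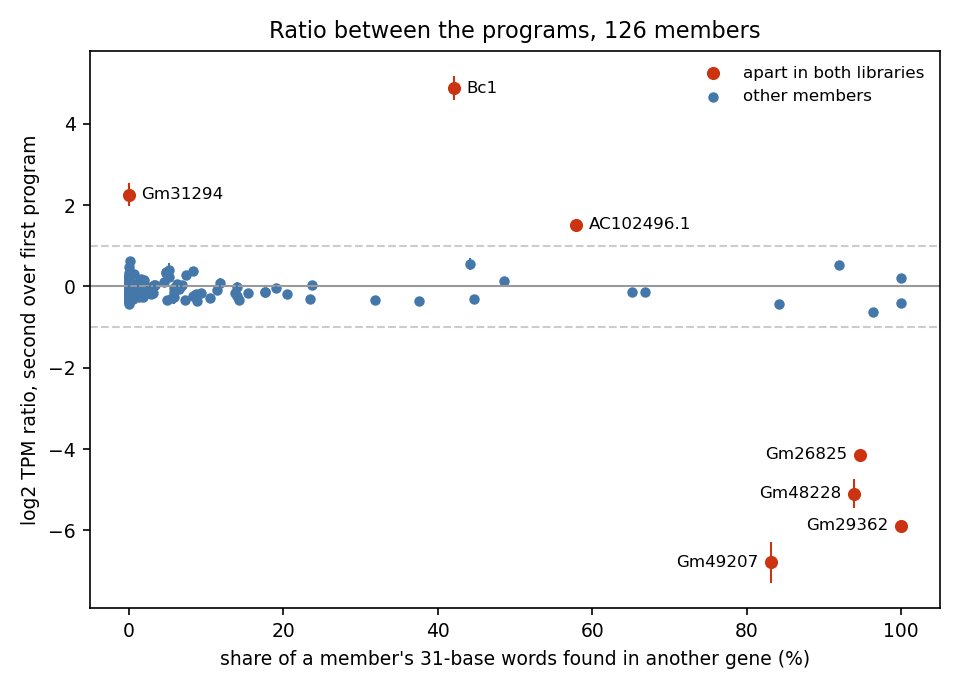
Log2 TPM ratio of the second over the first program (vertical; points are means of both libraries and bars join the libraries) against the share of a member's 31-base words found in another annotated gene (horizontal, %). The 4 members far below 0 share over 80% of their words, and Bc1, at 42.0% shared, is the highest point.

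The programs mostly chose the same main transcript. Of the 77 members with 2 or more transcripts, 73 had the same highest transcript in both libraries in the second program and 74 in the first, and 70 had the same transcript in both programs and both libraries. In 3 members the programs differed in both libraries. Pantr1, with 12 transcripts, was led by Pantr1-202 in the second program with 79.4 and 67.5 TPM, against 64.8 TPM for Pantr1-212 in replicate 1 and Pantr1-206 in replicate 2 in the first program, all of them 499 to 546 bases long. The other 2 were M5C1000I18Rik and 5830454E08Rik.

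Members lay on 20 chromosomes, with 13 on chromosome 7 and 11 on chromosome 13, and 49 had a single transcript. Exons of 29 members overlap an exon of a gene on the other strand, and in 7 of them at least 50% of the exonic bases do; the highest of the 29 are AY036118, Malat1 (453 bases under Gm37376) and Gm42418. The start of the nearest coding gene was a median of 24248 bases away, and over 100 kb away for 26 members. In 24 members it lay within 1000 bases on the other strand, running away from the member. In these pairs the member had a median mean level of 5.03 TPM and the coding partner 9.63 TPM, and 9 of the 24 members were above their partner. Members had to reach 3 TPM in both libraries and partners did not, and 17 of the 24 partners reached it. A member is above a partner that stays under this level by the rule itself, so the 9 pairs are partly set by the choice of members. Beside Pantr1, 3300002P13Rik had 12.8 and 11.2 TPM against 0.89 and 1.26 TPM for Cacng6, a gene of the calcium channel gamma family. At the other end, Mkln1os had 4.70 and 3.98 TPM against 90.4 and 84.6 TPM for Mkln1, and 4833445I07Rik had 4.59 and 4.38 TPM against 143 and 140 TPM for Ndufaf3, an assembly factor of mitochondrial complex I. Of the 24 members, 22 were tested and 0 were called between the libraries, beside 1.05% of the tested genes at this level.

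**Figure D5:**
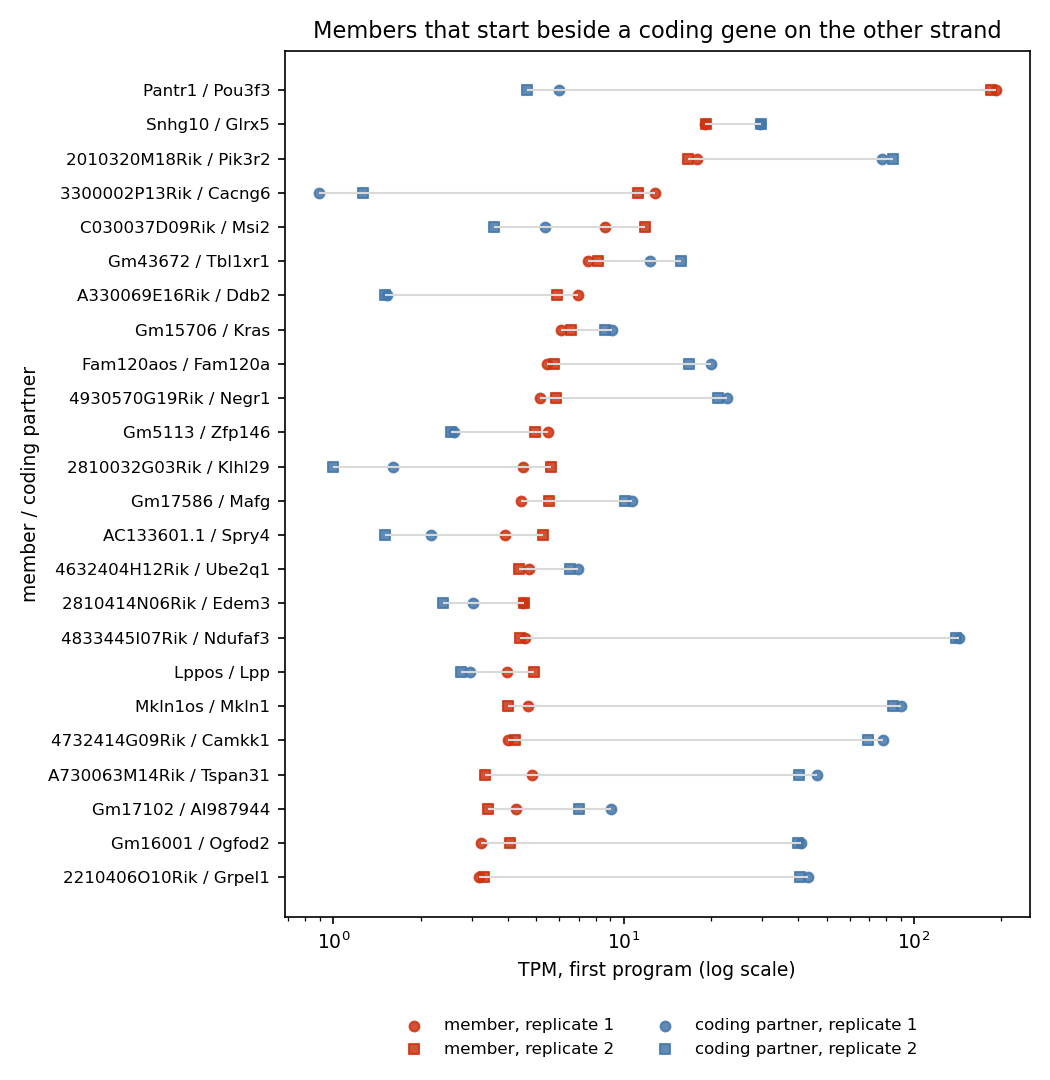
TPM (log scale, first program) of the 24 members that start within 1000 bases of a coding gene on the other strand (red) and of that coding gene (blue), with circles for replicate 1 and squares for replicate 2. In 9 pairs, Pantr1 and Pou3f3 the widest among them, the member is above its partner, and in 15 it is below. Only the members had to reach 3 TPM in both libraries.

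A RefSeq promoter window (250 bases before to 50 after a start, GRCm38.p6) was found on the same chromosome and strand for 81 members, with 98 windows. The match was by gene name and not by position. For AY036118 the window, at chr17:39898336-39898635, lies outside the locus given above, and it holds TATAAA and CCAAT. The letters TATAAA were in 14.3% of member windows and 13.6% of all 32851 windows, CCAAT in 41.8% and 37.4%, GGGCGG in 40.8% and 35.7%, and TGACGTCA, the full site of cyclic-AMP response element factors, in 7.14% and 1.79%, each sought on both strands. That last share is 7 windows of 98, each of a different member: 1300002E11Rik, 1810044D09Rik, 4930447M23Rik, C030029H02Rik, C030037D09Rik, Gm3764 and Mir9-3hg. The 32851 windows belong to genes of any level, and no share was taken over genes that reach 3 TPM. Whether these shares are particular to members was therefore not tested. The median number of CG pairs was 9.5 in member windows and 7 in all windows. Windows of members beside a coding gene differ in make-up from those of other members, with GGGCGG in 15 of 21 against 25 of 77, TATAAA in 0 of 21 against 14 of 77, and a median of 37 CG pairs against 7. The windows of both miR-9 hosts that hold TGACGTCA are shown 5′ to 3′, because hosts of the same mature microRNA share this site; capitals mark any of the 4 motifs. Gm3764 is at chr3:88214232-88214531 and Mir9-3hg at chr7:79499776-79500075, both on the plus strand.
Gm3764: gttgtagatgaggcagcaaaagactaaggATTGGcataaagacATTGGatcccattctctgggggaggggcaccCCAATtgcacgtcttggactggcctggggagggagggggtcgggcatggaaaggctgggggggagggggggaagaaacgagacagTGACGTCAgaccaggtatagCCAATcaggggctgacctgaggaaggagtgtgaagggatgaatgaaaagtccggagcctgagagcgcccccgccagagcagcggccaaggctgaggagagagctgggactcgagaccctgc
Mir9-3hg: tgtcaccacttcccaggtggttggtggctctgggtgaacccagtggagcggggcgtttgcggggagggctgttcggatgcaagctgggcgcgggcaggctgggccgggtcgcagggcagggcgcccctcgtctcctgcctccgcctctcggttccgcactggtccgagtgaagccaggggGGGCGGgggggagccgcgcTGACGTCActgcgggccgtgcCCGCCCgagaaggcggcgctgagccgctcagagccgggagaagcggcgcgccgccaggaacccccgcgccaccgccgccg
The windows of C130071C03Rik, the third host, hold no TGACGTCA, and no match says only that these letters are not in the windows.

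Members just inside the level were 2810429I04Rik (3.74 and 3.03 TPM), 5830454E08Rik (3.19 and 3.13 TPM) and 2210406O10Rik (3.17 and 3.30 TPM). Just outside were 2310040G24Rik (2.99 and 3.86 TPM), C230057M02Rik (4.47 and 2.99 TPM) and Gm7967 (3.73 and 2.98 TPM), so the line divides genes of the same height. In all, 35 lincRNA-only genes, those just outside included, reached the level in 1 library only, 27 in replicate 1 and 8 in replicate 2. Of the members, Gm29362 and Gm31294 had under 10 reads in both libraries. For 87 members the first program gave a posterior SD of 0 in both libraries, and for 4 it was above 5% of the count in both.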

How the data were processed

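Polyadenylated RNA of 1 group of 2 hippocampus libraries was quantified by the authors with 2 programs. The sources used here do not give their names and versions. Per the file headers, the deposited gene tables hold expected counts of reads, which need not be whole, TPM and FPKM, both scaled for length and depth, and a posterior SD of the count, a score of how firmly reads were placed. The deposited transcript tables hold expected counts and TPM of the first program, or estimated counts and TPM of the second. The files use mm10 and the M21 annotation, per the text deposited beside them. Rows without a gene name (26248 named by a number and 97 spike-ins) held 9 and 6 reads, or 2.31e-05% and 1.64e-05%, and were left out.

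Expected counts were rounded and scaled by TMM (edgeR 4.0.16, R 4.3.3; factors 1.005 and 0.995), and tested with the exact test described above (Python 3.11.15, scipy 1.17.1, prior count 0.5 in ratios). The biological coefficient of variation was 17.4%, so counting error understates the spread. The test was tried on simulated counts that held counting error only. There it called 100 of 100 genes set at a log2 ratio of 1.5 and 1 of 13897 unchanged genes. The real spread is larger, so this does not give the rate of false calls between these libraries. Shared words and motifs were read from M21 transcripts and RefSeq promoters. The members and lists were chosen with earlier results of these data known. Named genes are the 15 highest members, members of the 4 noncoding lists, the 3 highest and 3 lowest ratios between libraries, called members, the 5 largest program ratios each way, and the genes nearest the level; others were named after their values were seen. Alternatives are other scalings, levels, count minimums, units and programs.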

Additional observations from a re-analysis of the deposited data

How the results depend on the processing

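The number of members depends on the level: 272 genes passed at 1 TPM, with all 126 members among them, and 41 at 10 TPM. It was 134 to 153 when 1 library set the rule, 154 with at least 1 lincRNA transcript, 146 with the second program's TPM (114 members among them), 100 with FPKM and 136 without mitochondrial genes. The members called between the libraries numbered 6 with the other scalings, 7 with a lower or no count minimum (Gm49207 added), 7 with the second program (Bc1 added) and 4 with the exactTest function of edgeR, where 154 of all genes, 1.09%, were called and each side is 1 library with the dispersion taken from both; at a mean count of at least 10, 719 genes were called, and 839 with no minimum. Without the chromosome 17 locus, an alternative chosen after seeing the data, 3 were called. Members with the programs apart numbered 6 or 7 with another pseudocount, with CPM or from 1 library alone, and 2 without the 12 members of much shared sequence, also chosen after seeing the data. The members' median log2 ratio between the libraries was -0.024, against -0.0099 with library totals and 0.0057 with the second program's counts. Their median ratio between the programs ran from -0.136 to -0.065 under the alternatives. The yardsticks for these medians were a spread of single genes (0.135) and the SD of the single-library medians (0.0504). Both are hard to exceed, so no conclusion is drawn from staying within them. No paired analysis was possible because there is a single group. Leaving out a library gives no ratio between libraries. Members under 50 reads, and short ones such as Bc1, limit what the depth can show.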
